A study of Symphysodon aequifasciata with 2 samples.

Results

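The immediate early transcription factors of the discus fish brain were taken as every feature of the expression table whose gene name, in any case and with or without a final a, b or -like, is fos, fosb, jun, junb, jund, egr1, egr2, egr3, nr4a1, nr4a2 or npas4. Of the 40209 features in the table, 14 met this rule, with the name egr1-a read as egr1 with a final a. They stand for 7 of the 11 genes: fos had 3 features, jun, junb and jund had 2 each, egr1 had 3, and nr4a1 and npas4 had 1 each. No feature carried the name fosb, egr2, egr3 or nr4a2.

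The study sequenced the brain of 1 female (library Tbrain) and 1 male (library Obrain) discus, Symphysodon aequifasciata, an ornamental cichlid, to compare brain transcripts between the sexes. Both fish were 1 year old and were killed in water with 100 mg/L MS-222, an anaesthetic, and brain RNA with a RIN (an index of RNA integrity) above 7 was selected for poly(A) tails and made into an unstranded library. With 1 library per sex there is no replicate and no test between the sexes, and sex cannot be told apart from the individual, from handling or from how each library was prepared. The sex of a library follows its gender label, which was not checked here, and the unexplained initials T and O of the titles can be read as going against those labels, in which case every direction below would turn.

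Immediate early genes are switched on by signals that reach a cell, such as calcium entry or growth factors, without the need for new protein synthesis, and in the brain they are widely used as markers of recent neuronal activity. FOS and JUN proteins carry a basic leucine zipper and pair to form the AP-1 complex, which binds DNA as a dimer. EGR proteins bind DNA with zinc fingers, NR4A proteins are orphan nuclear receptors, and NPAS4 is a basic helix-loop-helix PAS factor known for its dependence on calcium entry in neurons.

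Levels are in TPM (a measure of relative transcript abundance), which divides reads by transcript length, so that levels of different genes can be compared within a library. The log2 ratio is log2 of female TPM + 0.5 over male TPM + 0.5, and a fold is the plain ratio of TPM. The interval of a fold is an exact 95% interval from reads recovered out of the TPM values. It covers counting error alone and says nothing of how fish vary, and it is too narrow if duplicate reads are present. The recovered reads of the 14 features ranged from 29 to 4933, the fewest by far being those of nr4a1. Every member but nr4a1 is longer than the 800 bases up to which read recovery was checked, so its reads and intervals are extrapolated. Intervals of the 3 fos features and of egr1-a TRINITY_DN11662_c1_g4 are further approximate, because each of these joins 2 assembled transcripts.

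Of the 9 FOS and JUN features, 8 were higher in the female library, and all 5 EGR, NR4A and NPAS4 features were lower in the female library, although 1 egr1-a feature crosses 0 when ratios are centred. The counting interval of the fold held 1 for 3 of the 9 and for 1 of the 5. Over all features 43.7% were above 0 and 56.2% below 0, and at 500 bases or more 44.6% and 55.3%. The direction of nr4a1 was fixed by how the table lists features, as described with its values. Summed over its features, the FOS and JUN group stood at 205.5 TPM in the female and 163.6 TPM in the male library. The EGR, NR4A and NPAS4 features together stood at 71.4 TPM in the female and 107.8 TPM in the male library. All 14 features summed to 276.9 TPM in the female and 271.3 TPM in the male library, so the total was nearly equal while its make-up differed.

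Counted on the log2 ratio, only 1 of the 14 features, nr4a1, was at least 2-fold lower in the female library, where 10.1% of all features were, and none was at least 2-fold higher, where 5.02% of all features were. Among the 16999 features of at least 500 bases, the lengths at which the 14 lie, those shares were 1.91% and 0.747%. At 1.5-fold, 3 members were lower and 1 was higher in the female library, against 20.5% and 11.9% of all features and 8.02% and 3.55% of features of at least 500 bases. Over features of at least 500 bases the median log2 ratio was -0.04, and 55.3% of them were below 0. The counting interval left out 1 for 10 of the 14 folds, 6 above 1 and 4 below 1. How many of all features do so was not counted, so this is no trait of the members. With many reads even a small fold can leave out 1, as that of gfap, a glial marker, did at 1.04 (interval 1.02 to 1.05).

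**Figure D1:**
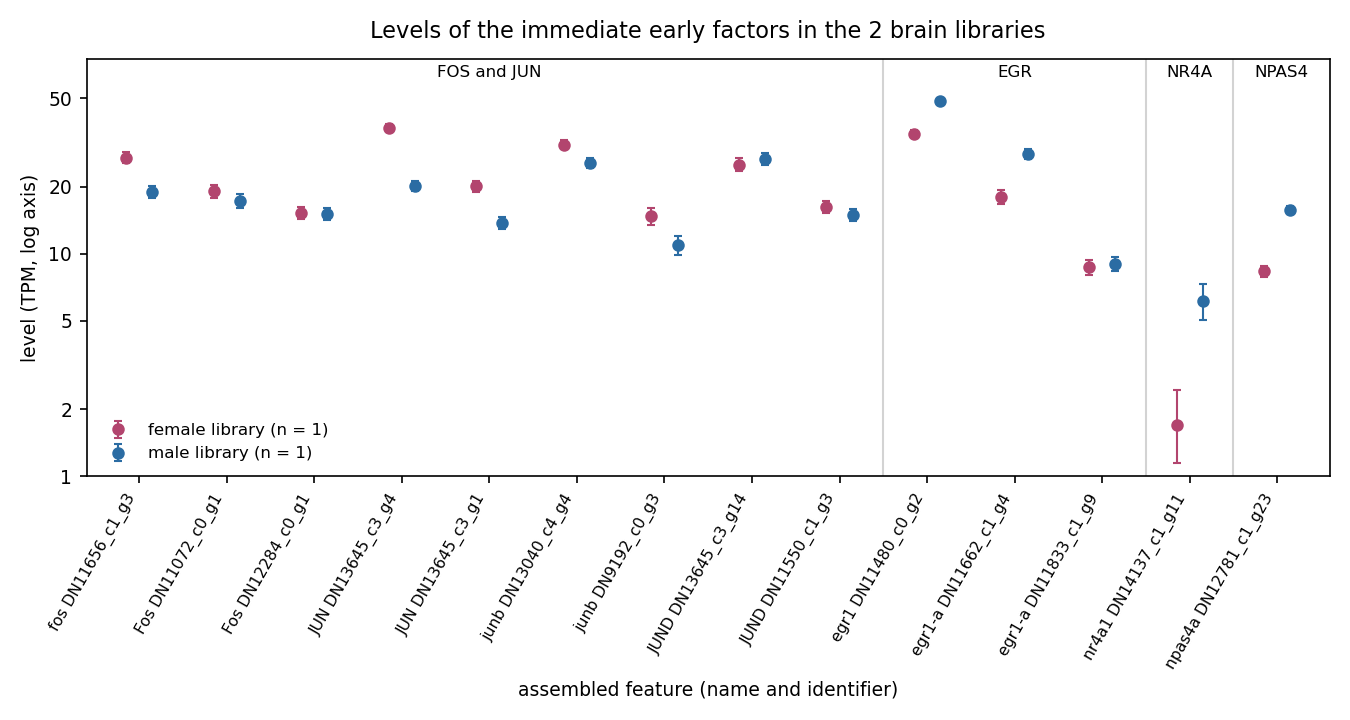
Level of each of the 14 features in TPM on a log axis, with the female library left of the male library and bars for exact 95% counting intervals. In the FOS and JUN group most female points lie above the male ones, with JUN TRINITY_DN13645_c3_g4 at 36.88 against 20.23 TPM, while egr1, 1 of the egr1-a features, nr4a1 and npas4a lie lower in the female library.

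The 3 fos features are matched to c-Fos, which cannot pair with itself and binds DNA with a JUN partner. The feature fos TRINITY_DN11656_c1_g3, 1554 bases long, had 27.09 TPM in the female and 18.97 TPM in the male library, 1.43-fold higher in the female library (interval 1.31 to 1.55). Fos TRINITY_DN11072_c0_g1 had 19.13 TPM in the female and 17.29 TPM in the male library, a fold of 1.11 (interval 1.01 to 1.22). Fos TRINITY_DN12284_c0_g1 had 15.29 TPM in the female and 15.14 TPM in the male library, a fold of 1.01 whose interval of 0.923 to 1.10 holds 1. The 3 thus differed among themselves, since the interval of the first does not meet that of the other features. Their protein matches were c-Fos of different fishes, and only the first had an annotated basic leucine zipper domain. Whether they are gene copies, alleles or pieces of 1 transcript cannot be told from the table. Summed, fos stood at 61.5 TPM in the female and 51.4 TPM in the male library, a fold of 1.20.

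The jun features encode c-Jun, the AP-1 partner that can pair with FOS proteins or with itself, and they stood furthest towards the female library. JUN TRINITY_DN13645_c3_g4 had 36.88 TPM in the female and 20.23 TPM in the male library, a log2 ratio of 0.85 and a fold of 1.82 (interval 1.71 to 1.95). Only 1.22% of features of at least 500 bases had a ratio as high or higher. JUN TRINITY_DN13645_c3_g1 had 20.09 TPM in the female and 13.75 TPM in the male library, a fold of 1.46 (interval 1.34 to 1.59), with 4.59% of features of at least 500 bases as high or higher. The intervals of these jun features do not meet, and neither holds 1. Both belong to assembly component TRINITY_DN13645_c3, which also holds a JUND feature, so that reads from like stretches could be split between them.

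The junb features encode JunB, an AP-1 partner that in mammals is often a weaker activator than c-Jun. The longer one, junb TRINITY_DN13040_c4_g4, had 30.90 TPM in the female and 25.69 TPM in the male library, a fold of 1.20 (interval 1.12 to 1.29). Its shorter counterpart, junb TRINITY_DN9192_c0_g3, had 14.74 TPM in the female and 10.94 TPM in the male library, a fold of 1.35 (interval 1.18 to 1.54). Both were thus higher in the female library beyond counting error, and their intervals overlap.

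The jund features encode JunD, which in mammals is present at a steadier level than the other JUN proteins and depends less on stimulation. JUND TRINITY_DN13645_c3_g14, the only FOS or JUN feature lower in the female library, had 25.16 TPM in the female and 26.57 TPM in the male library, a fold of 0.947 (interval 0.863 to 1.04). JUND TRINITY_DN11550_c1_g3 had 16.21 TPM in the female and 14.99 TPM in the male library, a fold of 1.08 (interval 0.990 to 1.18). Both intervals hold 1, and the summed jund level was 41.4 TPM in the female and 41.6 TPM in the male library. By contrast, summed jun stood at 57.0 TPM in the female and 34.0 TPM in the male library. Jun over jund was therefore 1.38 in the female library and 0.818 in the male library, and the odds ratio of the reads was 1.65 (interval 1.52 to 1.80). For jun over junb the ratio was 1.25 in the female library and 0.928 in the male library, with an odds ratio of 1.36 (interval 1.25 to 1.47). These ratios are taken within a library and do not depend on how the libraries are scaled.

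**Figure D2:**
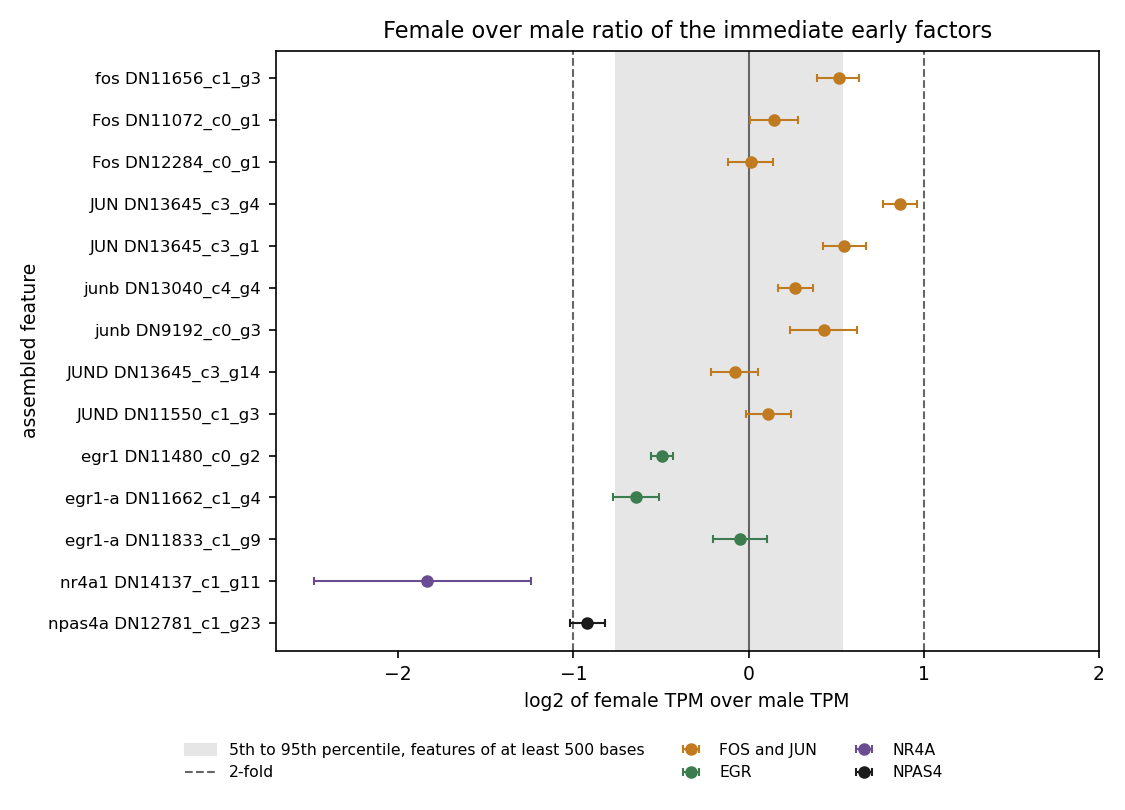
Log2 of female over male TPM for each of the 14 features, without a pseudocount, with exact 95% counting intervals, and in grey the range from the 5th to the 95th percentile of features of at least 500 bases. The features nr4a1 and npas4a lie below the grey range and the jun features at or above its upper edge, while jund and 1 egr1-a feature straddle 0.

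The egr1 features encode EGR1, a zinc finger factor also used as a marker of recent activity in fish brain. The feature egr1 TRINITY_DN11480_c0_g2, 2716 bases long and the most abundant member in the male library, had 34.71 TPM in the female and 48.85 TPM in the male library. Its fold was 0.711 (interval 0.680 to 0.743), or 1.41-fold higher in the male library, and 11.3% of features of at least 500 bases had a ratio as low or lower. The feature egr1-a TRINITY_DN11662_c1_g4 had 17.98 TPM in the female and 28.06 TPM in the male library, a fold of 0.641 (interval 0.585 to 0.702). These features were thus both lower in the female library beyond counting error. The last, egr1-a TRINITY_DN11833_c1_g9, had 8.69 TPM in the female and 8.98 TPM in the male library, a fold of 0.968 whose interval of 0.870 to 1.08 holds 1. Its log2 ratio of -0.04 becomes 0.03 when ratios are centred on the median of all features, so its direction is not settled. Summed, egr1 stood at 61.4 TPM in the female and 85.9 TPM in the male library. The name egr1-a comes from a frog protein, and both features with that name carry annotated zinc finger domains.

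The nr4a1 feature, TRINITY_DN14137_c1_g11, is matched to NR4A1, a nuclear receptor that acts without a known natural ligand, and its closest protein in the table is named as the related receptor HR38. It is 711 bases long and had 1.71 TPM in the female (interval 1.15 to 2.46) and 6.11 TPM in the male library (interval 5.04 to 7.35). That is a log2 ratio of -1.58 and a fold of 0.280 (interval 0.179 to 0.423), or 3.57-fold higher in the male library, on 29 reads in the female library and 113 in the male library. Only 0.388% of features of at least 500 bases had a ratio as low or lower. The table lists a feature only where the higher library reaches 6.01 TPM, and nr4a1 passed through its male value alone, so at its female level it could be listed only with a higher male level. The other 13 members exceeded 6.01 TPM in both libraries.

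NPAS4 was represented by npas4a, TRINITY_DN12781_c1_g23, the longest member at 3917 bases. It had 8.34 TPM in the female (interval 7.87 to 8.83) and 15.78 TPM in the male library (interval 15.2 to 16.4). The fold was 0.529 (interval 0.492 to 0.567), or 1.89-fold higher in the male library. The log2 ratio of -0.88 was matched or passed by 2.89% of features of at least 500 bases. It rests on 1162 reads in the female library and 2373 in the male library, so counting error is small beside the difference.

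Placed side by side, the groups had median log2 ratios, with 1 feature per gene, of 0.38 for FOS and JUN, -0.49 for EGR, -1.58 for NR4A and -0.88 for NPAS4. FOS and JUN had 4 genes, but EGR, NR4A and NPAS4 had 1 each, so each of those medians is the ratio of 1 feature. The FOS and JUN median stood 1.26 above the median over the EGR, NR4A and NPAS4 genes, which is the npas4a ratio. It stood 1.07 above it without nr4a1, and the difference was 0.89 when every feature was counted. Within each library, FOS and JUN over EGR was 3.35 in the female library and 1.90 in the male library, with an odds ratio of the reads of 1.77 (interval 1.69 to 1.85). FOS and JUN over NPAS4 was 24.6 in the female library and 10.4 in the male library (odds ratio 2.42, interval 2.24 to 2.61). FOS and JUN over NR4A was 120 in the female library and 26.8 in the male library (odds ratio 4.62, interval 3.05 to 7.22). So the FOS and JUN features named by the rule outweighed its EGR and NPAS4 features more in the female than in the male library. FOSL2 and the features matched to egr1 by protein only, given below, are not in these sums. The ratio to NR4A is a description only, since nr4a1 entered the table through its male value.

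Among the groups that were lower in the female library, EGR over NPAS4 was 7.36 in the female library and 5.44 in the male library, with an odds ratio of 1.37 (interval 1.27 to 1.49). NR4A over NPAS4 was 0.205 in the female library and 0.387 in the male library, with an odds ratio of 0.524 (interval 0.334 to 0.800), again with nr4a1 listed through its male value alone. FOS over the JUN family was 0.427 in the female library and 0.458 in the male library, and the female ratio over the male ratio was 0.932. The odds ratio of the reads was 0.892, with an interval of 0.839 to 0.948 that leaves out 1.

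**Figure D3:**
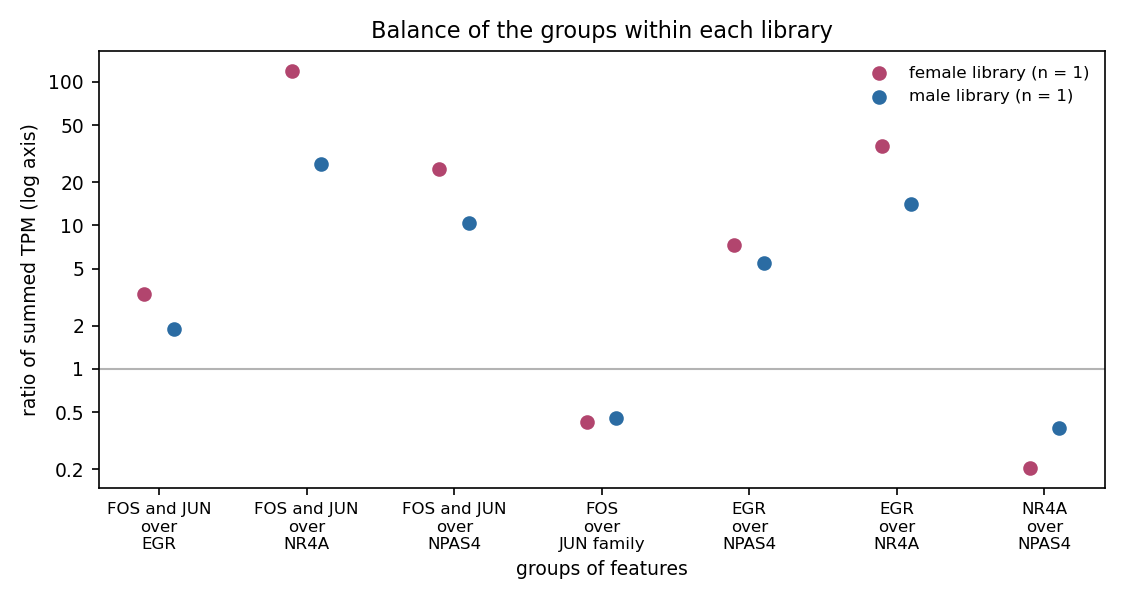
Ratio of summed TPM between groups of features within each library, on a log axis, with the female library left of the male library. FOS and JUN over EGR, NR4A and NPAS4 lies higher in the female library, for NR4A as a description only since nr4a1 was listed through its male value. FOS over the JUN family lies at 0.427 in the female library and 0.458 in the male library.

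The order of levels differed between the libraries. In the female library JUN TRINITY_DN13645_c3_g4 came first and egr1 second, with overlapping intervals, followed by junb TRINITY_DN13040_c4_g4 at 30.90 TPM. In the male library egr1 came first, clear of egr1-a TRINITY_DN11662_c1_g4, which in turn overlapped with JUND TRINITY_DN13645_c3_g14. JUN TRINITY_DN13645_c3_g4 ranked 1 of 14 in the female and 5 of 14 in the male library. Conversely, egr1-a TRINITY_DN11662_c1_g4 ranked 8 in the female library and 2 in the male library, and npas4a ranked 13 in the female library and 8 in the male library. The nr4a1 feature was lowest in both. Of the 13 neighbouring pairs in the order, 8 overlapped in each library.

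Several features lie just outside the naming rule. FOSL2, an AP-1 member that was not among the 11 names, had 25.54 TPM in the female and 35.46 TPM in the male library, a log2 ratio of -0.47, on the other side from fos. The feature named npas4l, a name used in zebrafish for a factor needed to form blood and vessels, had 8.0 TPM in the female and 17.96 TPM in the male library, a log2 ratio of -1.12. An unnamed feature of 592 bases with an egr1 protein match had 13.13 TPM in the female and 18.70 TPM in the male library, a log2 ratio of -0.49. An unnamed feature of 244 bases matched to nr4a2 had 9.54 TPM in the female and 14.14 TPM in the male library, and 1 of 345 bases matched to nr4a3 had 13.87 TPM in the female and 10.75 TPM in the male library. A feature named Kif5a whose protein match is egr1, from the same component as egr1-a TRINITY_DN11662_c1_g4, had 34.07 TPM in the female and 32.49 TPM in the male library.

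The genes around the members were read through 6 lists with 187 genes, of which 150 were measured. On the log2 ratio, which sets every 2-fold count here, 1 was at least 2-fold higher and 6 at least 2-fold lower in the female library. Of all features 5.02% were at least 2-fold higher and 10.1% at least 2-fold lower. At 500 bases or more those shares were 0.747% and 1.91%. Of the 7 list genes past 2-fold, 6 are on features under 500 bases, for which no reads were recovered here. Under 6.01 TPM in 1 library are 4 of the 7 (per1, inhba, cacna1c and dusp10), so that they were listed through the other library alone. The feature of at least 500 bases is per1, a clock gene that is also induced by activity, with 5.28 TPM in the female and 18.59 TPM in the male library, a log2 ratio of -1.72.

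Other transcription factors induced by activity did not share a direction, with 11 of 25 measured genes above 0, 14 below 0 and a median log2 ratio of -0.08. Over all features 43.7% were above 0 and 56.2% below 0, with a median of -0.07, so this list lay near the whole table. Id1, an inhibitor of helix-loop-helix factors, had 153.16 TPM in the female and 79.79 TPM in the male library, a log2 ratio of 0.94. Its relative id2 had 142.16 TPM in the female and 159.92 TPM in the male library.

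Effector genes, some of which act at synapses or are secreted after activity, had 20 of 29 measured genes below 0, 9 above 0 and 1 at least 2-fold lower. Among those below 0, inhba, vgf, plk3 and rrad were under 6.01 TPM in the female library. Their direction was thus fixed by how the table lists features, and that of tac1, at 4.12 TPM in the male library, was fixed the other way. All effector genes whose levels in both libraries are given below lie below 0. Over all features 56.2% were below 0 and 10.1% at least 2-fold lower. The effector median log2 ratio was -0.40, against -0.07 over all features. Scg2, which encodes a granin of secretory vesicles, had 195.88 TPM in the female and 225.01 TPM in the male library. On short features, inhba, an activin subunit, had 5.30 TPM in the female and 20.18 TPM in the male library, and gem, a small GTP-binding protein, had 10.96 TPM in the female and 21.01 TPM in the male library. Longer examples, chosen after their values were seen, were the synaptic scaffold homer1, with 17.71 TPM in the female and 29.18 TPM in the male library, and the growth factor bdnf, with 11.69 TPM in the female and 16.70 TPM in the male library. The 21 effector genes on features of at least 500 bases also had a median of -0.40.

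Feedback inhibitors of the inducing signal were spread around 0, with 10 of 22 measured genes above 0, 12 below 0 and a median of -0.07. This list too lay near the whole table, where 43.7% of features were above 0, 56.2% below 0 and the median was -0.07. Dusp10, a phosphatase of MAP kinases, had 20.51 TPM in the female and 5.58 TPM in the male library on a feature of 226 bases. That feature is 1 of 3 matched to dusp10, the one with the highest mean, and the others are not described here. Spry4, an inhibitor of growth factor signalling, had 6.68 TPM in the female and 12.56 TPM in the male library, and tob1, an antiproliferative protein, had 48.50 TPM in the female and 51.40 TPM in the male library. Nab2, a co-repressor that EGR1 recruits, had 14.82 TPM in the female and 10.59 TPM in the male library, and was chosen after its values were seen.

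**Figure D4:**
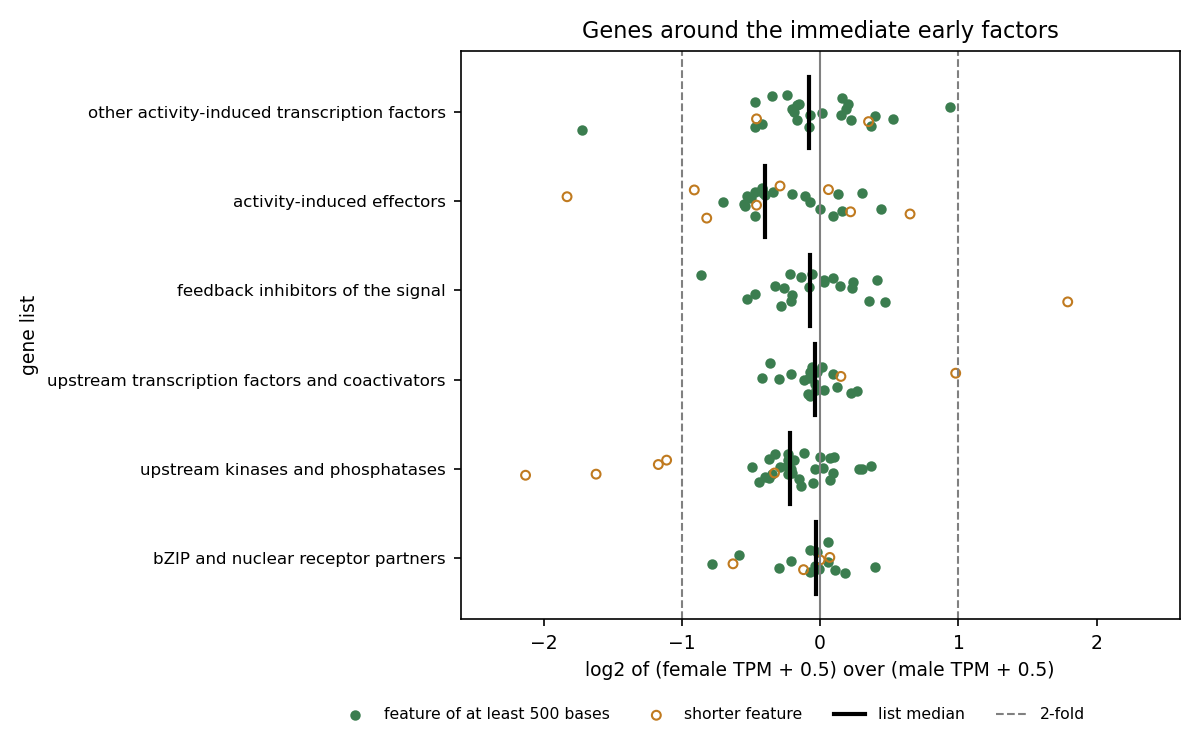
Log2 ratio of female over male (TPM + 0.5) of each measured gene in the 6 lists, with filled points for features of at least 500 bases, open points for shorter ones and black bars for list medians. The effector list has its median at -0.40, while most genes past 2-fold are on short features.

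Upstream, none of the 21 measured transcription factors and coactivators that act on immediate early promoters passed 2-fold on the log2 ratio. Of all features 5.02% were at least 2-fold higher and 10.1% at least 2-fold lower in the female library. At 500 bases or more those shares were 0.747% and 1.91%. The median of the 21 genes was -0.04, which becomes 0.03 on centring. Srf, which binds serum response elements, had 40.06 TPM in the female and 42.72 TPM in the male library, and atf4, a bZIP factor, had 82.26 TPM in the female and 89.61 TPM in the male library. Crtc2, a coactivator of CREB, had 14.63 TPM in the female and 19.78 TPM in the male library. Mef2b had 9.13 TPM in the female and 4.38 TPM in the male library on a feature of 278 bases. That is a plain fold of 2.08 and a log2 ratio of 0.98. Being under 6.01 TPM in the male library, mef2b was listed through its female value alone. Of the genes named here, srf was chosen after its values were seen.

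Kinases, phosphatases and channels that carry the signal had 27 of 35 measured genes below 0, 4 at least 2-fold lower in the female library and a median of -0.22. Among those below 0, cacna1c and rps6ka2 were under 6.01 TPM in the female library, so their direction was fixed by how the table lists features. Over all features 56.2% were below 0 and 10.1% at least 2-fold lower. Among the list genes, cacna1c, an L-type calcium channel subunit, had 3.90 TPM in the female and 18.72 TPM in the male library on 272 bases. Rps6ka5, a kinase of CREB and histone H3, had 6.26 TPM in the female and 20.23 TPM in the male library on 241 bases. None of the 30 on features of at least 500 bases passed 2-fold. Of all features of that length, 0.747% were at least 2-fold higher and 1.91% at least 2-fold lower in the female library. Ppp3ca, a calcineurin subunit, had 189.96 TPM in the female and 156.13 TPM in the male library.

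None of the 18 measured bZIP and nuclear receptor partners of the members passed 2-fold on the log2 ratio. Of all features 5.02% were at least 2-fold higher and 10.1% at least 2-fold lower in the female library. At 500 bases or more those shares were 0.747% and 1.91%. The median of the 18 genes was -0.03, which becomes 0.04 on centring. Hlf, a PAR bZIP factor, had 14.99 TPM in the female and 26.03 TPM in the male library. Nr3c1, the glucocorticoid receptor, had 8.05 TPM in the female and 12.70 TPM in the male library on 269 bases. The feature named nr2f1, a COUP nuclear receptor, had 25.40 TPM in the female and 25.50 TPM in the male library. Its protein match is COUP transcription factor 2, so which COUP receptor it encodes is not settled by the name.

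The pathway annotations in the table, consulted after the data were seen, placed 8 of the 14 members in MAPK signalling, namely 7 FOS and JUN features and nr4a1. The other 390 features with that annotation had a median log2 ratio of -0.16, with 14 at least 2-fold higher and 32 at least 2-fold lower in the female library. Over all features the median was -0.07, with 5.02% at least 2-fold higher and 10.1% at least 2-fold lower. Of the 390, 251 had at least 500 bases, and among those 0 were at least 2-fold higher and 5 at least 2-fold lower. Of all features of that length, 0.747% were at least 2-fold higher and 1.91% at least 2-fold lower in the female library. GnRH signalling held 4 members, both jun features, egr1 and egr1-a TRINITY_DN11662_c1_g4. Its other 138 features also had a median of -0.16, with 3 at least 2-fold higher and 14 at least 2-fold lower in the female library.

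In bulk tissue, fewer cells of a type and less RNA per cell cannot be told apart. Markers of cell types that the tissue could hold were detected in both libraries, and no measured marker was at 0 in either. The 4 measured of 6 erythrocyte markers summed to 1713 TPM in the female and 845 TPM in the male library, most of it hba and hbb. Of the 4, 3 were above 0, and slc4a1, on a feature of 280 bases, was below 0 at a log2 ratio of -0.12. The 2 measured of 5 lymphocyte markers summed to 624 TPM in the female and 305 TPM in the male library, most of it ighm. The 5 neuron markers summed to 3059 TPM in the female and 2691 TPM in the male library. Most of that sum was snap25, with 2641.96 TPM in the female and 2201.27 TPM in the male library. The neuron list had a median log2 ratio of -0.16 with 3 of 5 genes below 0, and elavl3 had 25.87 TPM in the female and 52.74 TPM in the male library. All 5 radial glia and astrocyte markers summed to 3157 TPM in the female and 2485 TPM in the male library. Most of that sum was fabp7, with 2442.90 TPM in the female and 1652.18 TPM in the male library. This list had a median log2 ratio of -0.06 with 3 of 5 genes below 0. The 5 measured of 7 microglia and macrophage markers summed to 58.0 TPM in the female and 72.6 TPM in the male library, the 6 measured of 7 endothelium markers to 99.3 TPM in the female and 95 TPM in the male library, and the only measured skeletal muscle marker, tnnt3, stood at 10.1 TPM in the female and 24.7 TPM in the male library, while a longer feature of the same gene had a log2 ratio of -0.01. Of single markers, the log2 ratio was 1.08 for hba, 1.00 for hbb, 1.05 for ighm and 0.38 for cd3e. Among neural markers it was 0.26 for snap25, -0.32 for syt1 and -1.01 for elavl3, 0.56 for fabp7 and -0.34 for glul, and 0.34 for mbp and 0.48 for olig1. For csf1r it was -0.88, for mpeg1 1.57, for pecam1 -0.53, for egfl7 0.44 and for the short tnnt3 feature -1.25. The mpeg1 feature, of 470 bases, had 7.22 TPM in the female and 2.10 TPM in the male library. Being under 6.01 TPM in the male library, it was listed through its female value alone. The pecam1 and cd3e features are also short, at 225 and 294 bases. The part of the cell type markers in the differences between the members was not tested.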

How the data were processed

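The deposited values of each library are TPM per assembled feature, whose identifiers look like those of the Trinity assembler. Per the labels' protocols, 5 µg of RNA went through poly(A) selection and libraries with inserts of 300 bp (within 50 bp) were sequenced in paired ends. Tools listed in the submitters' processing notes are edgeR, Salmon, FastQC and cutadapt, with no version or role. The assembly's settings are not given in the sources used here. TPM sums to 943014 in the female library and 937828 in the male library. TPM fixes each library's total, so a few abundant features lower all others.

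Libraries were grouped by the gender label. Members and gene lists were chosen with earlier results of these data known. All members are named. From each list the most abundant gene and the 2 with the largest ratios are named. Others are said to be chosen later or are named for a limit on their list. Some marker results are not reported here. Each list gene stands for its matched feature with the highest mean, and list synonyms and protein names were settled after the table was seen.

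TPM values hold no depth, but at a given length low values of features with 1 assembled transcript were whole multiples of a step, taken as 1 read. The step was fitted as K / (length - mu) on features of 500 to 700 bases, where 95.2% of 399 female and 95.3% of 172 male values lay within 0.2 of a whole number (40% by chance). At 701 to 800 bases, outside the fit, 100% of 22 female and 3 male values did. For longer features, and so for every member but nr4a1, the relation is extrapolated. It gives 23271671 reads in the female and 25263511 reads in the male library over features of at least 500 bases. Levels have exact Poisson intervals, folds Clopper-Pearson intervals, and ratios within a library conditional odds ratios with exact intervals, all at 95%.

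With 1 library per sex no test was run. Alternatives were pseudocounts of 0.1 and 1, a minimum of 10 TPM, centring, features of at least 500 bases, other ways to join features of a gene, a 1.5-fold threshold and another step. The software was SciPy 1.17.1, pandas 2.3.3, NumPy 2.4.6 and Matplotlib 3.10.9 under Python 3.11.15, and procedures were tested on simulated data.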

Additional observations from a re-analysis of the deposited data

How the results depend on the processing

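Of 176 values recomputed under the alternatives, 157 stayed within set limits and 19 did not, and 40 of the 42 ratios of single members stayed within them. Some of the 157 could not move, so this count is no measure of stability. All members have at least 711 bases, so the minimum of 500 bases changes no member value. NR4A and NPAS4 have 1 feature each, so joining features leaves them as they are. Centring cannot change the difference between the group medians. The limits came from counting intervals for members and groups, and from ranked gene ratios for list medians, with the full range for the smallest lists. Counts could differ by up to 1.5-fold. These limits can be wide: the microglia and macrophage median counted as within them while it went from -0.20 to -0.43 at a minimum of 10 TPM. Centring turned the sign of 4 values near 0: egr1-a TRINITY_DN11833_c1_g9 from -0.04 to 0.03, and the medians of upstream factors from -0.04 to 0.03, of bZIP and nuclear receptor partners from -0.03 to 0.04 and of radial glia markers from -0.06 to 0.01. A minimum of 10 TPM leaves 0 members at least 2-fold lower in the female library and a difference between the group medians of 1.07, because nr4a1 drops out. At a 1.5-fold threshold 1 member is higher and 3 are lower in the female library. Counting every feature gives a FOS and JUN median of 0.26 and a difference of 0.89. Features with 1 assembled transcript only, an alternative chosen after seeing the data, also give 0.26, because fos then drops out. Centring on the median of all features, which is -0.07, gives -0.41 for EGR and -0.81 for NPAS4, by construction. Among pathway list genes past 2-fold, those higher in the female library number 2 with a pseudocount of 0.1, 3 after centring and 0 at 500 bases or more, where 1 is lower. In the main setting, 6 of the 7 genes past 2-fold are on features under 500 bases. Just under the threshold lie mef2b and id1, at log2 ratios of 0.98 and 0.94. The single muscle marker moves to -1.28 and -1.21 with pseudocounts of 0.1 and 1, to -1.18 after centring and to -0.01 on a longer feature of the same gene.

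With 1 step for all long features, which counts fewer reads, the interval of Fos TRINITY_DN11072_c0_g1 becomes 0.943 to 1.30 and holds 1. No paired analysis was possible because each sex has 1 library. Counting intervals do not cover the spread between fish, and the nr4a1 ratio rests on 29 reads in the female library.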
